A study of Mus musculus with 13 samples.

Results

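The 7 genes described here, Scarb1, Lipe, Soat1, Npc1, Npc2, Stard3 and Acbd3, encode proteins that take up, store, release and move cholesterol. They were chosen by name from the 27071 features of the count matrix, their Ensembl identifiers were mapped to mouse symbols, and all 7 were found and passed the filter on low counts. The series asked which RNAs bind to the KH and Tudor domains of dAKAP1, a scaffold of the outer mitochondrial membrane that anchors protein kinase A. The RNA of every library came from MA-10, a steroid-making line from a Leydig cell tumour of the mouse, kept in RPMI medium with horse serum and antibiotics. In 4 KHT libraries it had been mixed with purified protein of the KH and Tudor domains and pulled down through the protein's tag with an antibody against maltose-binding protein (MBP). In 5 NEG libraries the bait was empty antibody beads, MBP alone or a protein named KHT(GDDG), with the bait of each library not given in the sources used here. The 4 IPT libraries were untreated input RNA. NEG 2 was 0 throughout and was left out, which leaves 4 libraries in each group.

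Leydig cells need cholesterol as the starting material of every steroid they make. Lipoprotein cholesterol enters at the cell surface or through endosomes, is stored as esters in lipid droplets, and is freed again when hormone signals through cAMP and protein kinase A. From late endosomes and droplets it must then reach the mitochondrial membranes, where Star and the outer membrane protein Tspo are known to act and where side chain cleavage starts steroid synthesis. Scarb1 is the receptor for selective uptake of cholesteryl esters, Soat1 makes the esters and Lipe, the hormone-sensitive lipase, cuts them. Npc2 and Npc1 pass cholesterol out of lysosomes in turn. Stard3 is a sterol transfer protein of late endosomes related to Star, and Acbd3 is a Golgi protein that binds acyl-CoA and is known as a partner of Tspo and of a regulatory subunit of protein kinase A.

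Total estimated counts ran from 1955446 to 3689792 in KHT, from 1162178 to 1618998 in NEG and from 2487679 to 3085423 in IPT. In NEG, 9 features that collect most reads took 95.97% to 98.1% of the counts, so that 31318 to 49062 counts were left for all other genes, against at least 929348 in each KHT or IPT library. All 7 Leydig markers (Star, Cyp11a1, Hsd3b1, Cyp17a1, Lhcgr, Nr5a1 and Insl3) had counts in each group, with summed levels of 278 to 417 CPM (counts scaled to a common library size) in KHT, 0 to 338 in NEG and 280 to 502 in IPT. The 5 Sertoli cell markers summed to at most 6.22 CPM in any KHT or IPT library and were at 0 in NEG, and germ cell, macrophage and peritubular markers summed to at most 6.09 CPM in any library. The 2 endothelial markers in the matrix summed to 12.7 to 21.8 CPM in KHT, 28.9 to 158 CPM in NEG and at most 27.9 CPM in IPT, and their part in the comparisons with NEG was not tested. Levels below are CPM scaled by edgeR's trimmed mean of M-values (TMM). They are not per transcript length and are compared only within a gene. Nothing in the labels says that the libraries came from separate cultures, so the p-values measure the spread between these libraries, which may be technical. The NEG libraries may also differ in bait. As the bait of each is not given, differences between baits and between libraries cannot be told apart in NEG.

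Of the 7 genes, Scarb1, Soat1 and Npc2 were higher in the KHT pull-down than in NEG, by 8.06-fold, 5.19-fold and 4.10-fold in edgeR. None of the 7 passed as lower in KHT than in NEG, and none passed in either direction between KHT and IPT. Among all 10714 genes tested, KHT exceeded NEG in 31% and was below it in 2.72%, 33.7% in either direction, so 3 of 7 was near the share of all genes at this number of members. The median log2 fold change of KHT over NEG was 1.00 for the 7 genes, against 1.73 for all genes, or 1.12 with genes at 0 in a group set at their bound. Here and below, medians with bounds leave out genes at 0 that are too low in the other group to have a bound. Every KHT library lay above every NEG library for 3 of the 7 genes, against 45.8% of all genes tested, and below every NEG library for 0 of the 7, against 1.02%.

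**Figure D1:**
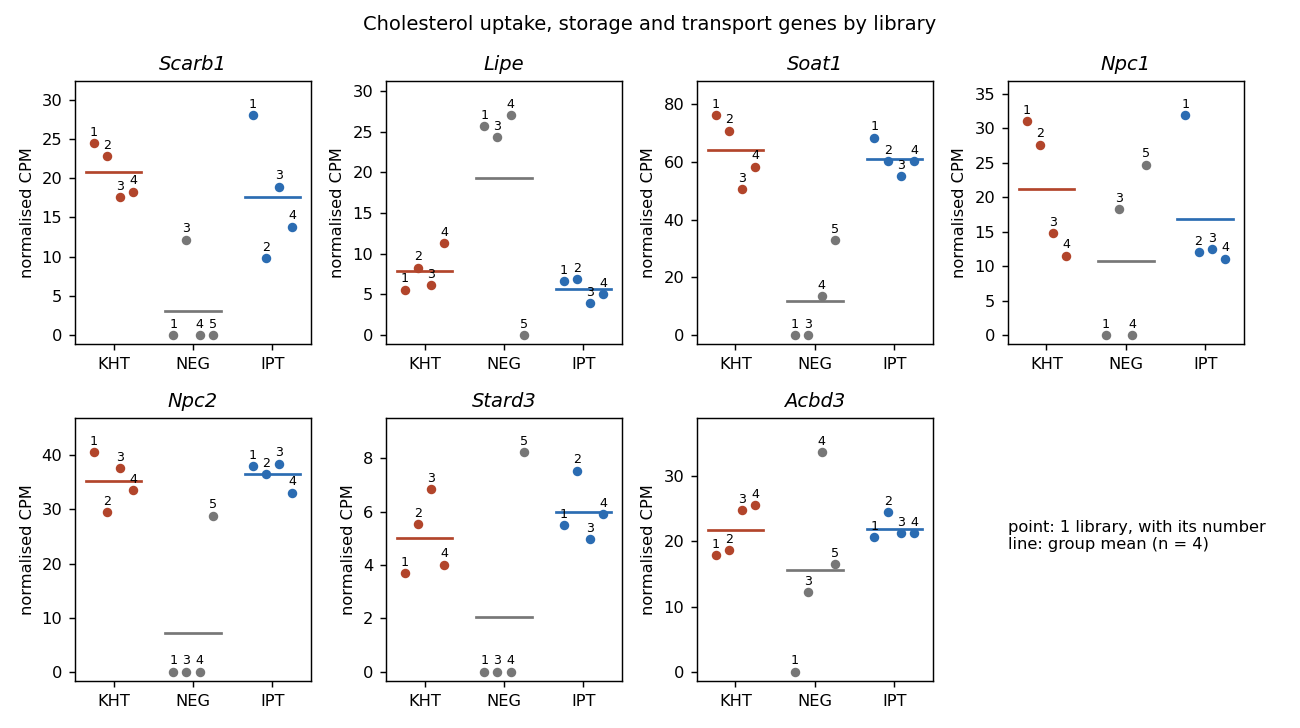
TMM-scaled CPM of the 7 genes in each KHT, NEG and IPT library; a point is 1 library with its number, and a line is the mean of 4. Every KHT library lies above every NEG library for Scarb1, Soat1 and Npc2, while NEG 1, 3 and 4 lie above every KHT and IPT library for Lipe, with NEG 5 at 0.

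Scarb1 (ENSMUSG00000037936; chromosome 5, 125277087 to 125341094, GRCm38.p6) takes cholesteryl esters from high-density lipoprotein at the cell surface. It had 185, 99, 154 and 73 counts in KHT 1 to 4, against 0, 2, 0 and 0 counts in NEG 1, 3, 4 and 5. In CPM this was 20.8 ± 3.39 in KHT and 3.04 ± 6.09 in NEG (± SD, 4 libraries per group). The groups did not overlap, and the only NEG library with a count was NEG 3. Pooled over libraries the KHT to NEG ratio was 8.17, with an exact 95% counting interval of 2.25 to 67.7, since it rests on 2 NEG counts. The log2 fold change was 3.01 (SE 0.89, edgeR adjusted p = 0.0173). This call ended without NEG 1 (2.54, adjusted p = 0.0676) and held in the other 17 alternatives. Without NEG 3, Scarb1 had no count in NEG. The long noncoding RNA Gm32701, annotated within Scarb1, was not analysed here.

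Soat1, which esterifies cholesterol in the endoplasmic reticulum (ENSMUSG00000026600; chromosome 1, 156428108 to 156474328), had 576, 308, 445 and 233 counts in KHT 1 to 4 and 0, 0, 2 and 8 counts in NEG 1, 3, 4 and 5. Its level was 64.1 ± 11.7 CPM in KHT and 11.6 ± 15.6 CPM in NEG (± SD, 4 libraries per group). KHT over NEG was 2.38 on the log2 scale (SE 0.70, adjusted p = 0.0169 by edgeR). The lowest KHT library, at 50.7 CPM, stood above the highest NEG library, at 33.0 CPM. Leaving out any 1 library kept the call, and without NEG 5 the log2 fold change was 4.16. It ended in the fit of the KHT and NEG groups alone (adjusted p = 0.0572).

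Lipe went the other way in NEG. This lipase (ENSMUSG00000003123; chromosome 7, 25379527 to 25398486) releases cholesterol from stored esters and is a known substrate of protein kinase A. It had 42, 36, 54 and 45 counts in KHT 1 to 4, against 6, 4, 4 and 0 counts in NEG 1, 3, 4 and 5 and 62, 48, 26 and 48 counts in IPT 1 to 4. The few NEG counts weigh heavily because the NEG libraries are small outside the 9 features. In CPM Lipe was at 7.82 ± 2.59 in KHT, 19.3 ± 12.9 in NEG and 5.62 ± 1.39 in IPT (± SD, 4 libraries per group). NEG 1, 3 and 4 lay between 24.3 and 27.0 CPM, above every KHT and IPT library, and NEG 5 was at 0, so the groups overlapped. NEG exceeded IPT for Lipe with a log2 fold change of 1.68 (SE 0.58, edgeR adjusted p = 0.0317), the opposite direction to the other 6 genes. KHT against NEG was -1.23 (SE 0.57, edgeR adjusted p = 0.0908) and did not pass.

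The Lipe values depended on 1 or a few libraries and on the scaling. Lipe passed as lower in KHT than in NEG in edgeR without NEG 5 (-1.67, adjusted p = 0.00676) and with the replicate number as a block (-1.82, adjusted p = 0.0104). It also passed in DESeq2 (-1.16, adjusted p = 0.0316) and, in edgeR, with a mean of at least 10 CPM (-1.51, adjusted p = 0.0485). Scaled by total counts, the direction turned, with KHT above NEG by 2.83 and NEG below IPT by -2.67 on the log2 scale, both past the threshold. The higher level of Lipe in NEG than in IPT lost its call without NEG 1 (adjusted p = 0.172), NEG 3 (0.0991), NEG 4 (0.108), IPT 3 (0.0574) or IPT 4 (0.0534), in limma voom (0.2498), with no filter on low counts (0.0803) and with halved values (0.0701). The long noncoding RNA 4732471J01Rik is annotated across the whole of Lipe (18960 bases), with the use of strand in counting not given in the sources used here. That gene held 85 counts in KHT, 0 in NEG and 139 in IPT. Its pooled NEG to IPT ratio was 0, with a 95% counting interval up to 1.11, beside a ratio of 3.13 for Lipe. Whether reads of one gene were counted to the other was not tested.

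Npc2, the soluble lysosomal carrier (ENSMUSG00000021242; chromosome 12, 84754559 to 84773112), had 307, 128, 330 and 134 counts in KHT 1 to 4. In NEG its 7 counts all lay in NEG 5, with 0 in NEG 1, 3 and 4. The level was 35.3 ± 4.86 CPM in KHT and 7.21 ± 14.4 CPM in NEG (± SD, 4 libraries per group). KHT over NEG was 2.04 on the log2 scale (SE 0.69, adjusted p = 0.0295 by edgeR). The lowest KHT library (29.5 CPM) was just above NEG 5 (28.9 CPM). Its call was the least stable of the 3: it ended without NEG 1 (adjusted p = 0.0906), NEG 3 (0.0780) or NEG 4 (0.0780), when scaled by the counts outside the 9 features (0.0579) and in the 2 groups alone (0.0660). Npc1, the membrane protein that receives cholesterol from Npc2 (ENSMUSG00000024413; chromosome 18, 12189694 to 12236506), had 234, 120, 130 and 46 counts in KHT 1 to 4, against 0, 3, 0 and 6 counts in NEG 1, 3, 4 and 5. At 21.2 ± 9.52 CPM in KHT and 10.7 ± 12.7 CPM in NEG (± SD, 4 libraries per group) it did not pass (log2 fold change 0.91, SE 0.78, edgeR adjusted p = 0.341). NEG 3 and NEG 5 lay among the KHT libraries, and NEG 1 and NEG 4 at 0.

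Stard3 and Acbd3 did not pass between KHT and NEG either. Stard3 (ENSMUSG00000018167; chromosome 11, 98358367 to 98381112) had 28, 24, 60 and 16 counts in KHT 1 to 4 and 2 counts in NEG, both in NEG 5. With 5.02 ± 1.45 CPM in KHT and 2.06 ± 4.12 CPM in NEG (± SD, 4 libraries per group), the pooled ratio was 2.05 with a 95% counting interval of 0.555 to 17.1 (edgeR log2 fold change 1.00, SE 0.91, adjusted p = 0.365). NEG 5, at 8.24 CPM, was above all KHT libraries, and without it Stard3 had no NEG count and passed (adjusted p = 0.0338). Acbd3 (ENSMUSG00000026499; chromosome 1, 180726043 to 180754204) had 135, 81, 218 and 102 counts in KHT 1 to 4 and 0, 2, 5 and 4 counts in NEG 1, 3, 4 and 5. Its level was 21.7 ± 4.03 CPM in KHT and 15.6 ± 13.98 CPM in NEG (± SD, 4 libraries per group). KHT over NEG was 0.61 on the log2 scale (SE 0.55, adjusted p = 0.360 by edgeR). NEG 4 stood above every KHT library at 33.8 CPM, and the interval of the KHT to NEG difference ran from 0.696-fold to 3.35-fold.

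Leaving out 1 NEG library could change the number of genes called. Without NEG 1, Soat1 alone of the 7 was called higher in KHT than in NEG, where 15% of all genes tested were. Without NEG 5, Scarb1, Soat1, Npc2 and Stard3 passed as higher and Lipe as lower, where 47.2% of all genes were higher and 3.95% lower. Scaled by total counts, all 7 were called higher in KHT, by 2.83 for Lipe to 6.92 for Scarb1 on the log2 scale, beside a median over all genes of 5.66, and 97.3% of all genes were called higher under that scaling. Relative to that median Scarb1, Soat1 and Npc2 stood above it, and Lipe, Npc1, Stard3 and Acbd3 below it.

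At the share that each gene held in IPT outside the 9 features, the 4 NEG libraries together would hold 40.6 counts of Soat1, where 10 were observed. For Npc2 the values were 24.0 and 7, and for Scarb1 they were 11.9 and 2. Npc1 had 9 observed counts where the input share gives 11.6, Acbd3 had 11 where it gives 14.4, and Stard3 had 2 where it gives 3.92. Lipe was the single gene of the 7 with more NEG counts than its input share gives, 14 against 3.73. By library, the 7 Npc2 counts all lay in NEG 5, where the share gives 7.62. Soat1 had 8 of its counts in NEG 5, where the share gives 12.9. Scaled by the counts outside the 9 features, the median log2 fold change of NEG over IPT over all genes was -1.44. Lower NEG counts were thus not particular to these genes.

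**Figure D2:**
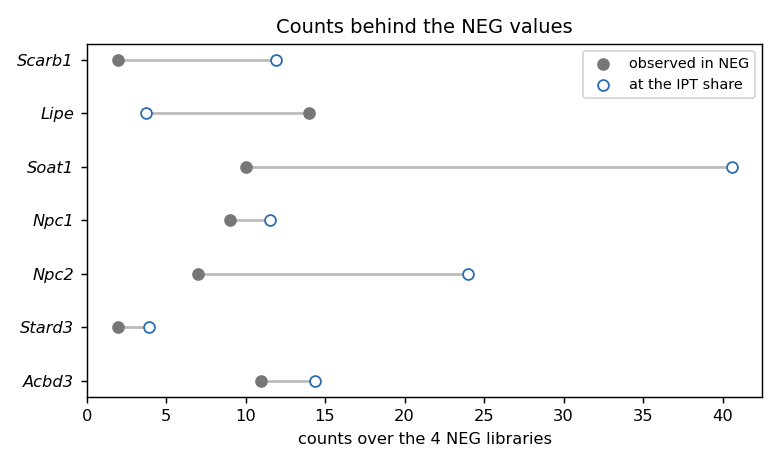
Counts of each of the 7 genes summed over the 4 NEG libraries (filled points), and the counts that the gene's share of IPT counts outside the 9 features would give at the NEG depth (open points). Soat1, Npc2 and Scarb1 had fewer counts than that share gives, and Lipe had more.

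The comparison of KHT with IPT asks whether the bait held an RNA more or less than its abundance in the input. No member passed in edgeR (adjusted p = 0.99987 for each), and none had an unadjusted p under 0.05. DESeq2 and limma voom likewise called 0 of the 7. Over all genes 0.00933% were called, which was 1 gene, the ribosomal protein pseudogene Rpl38-ps2, higher in KHT. At an unadjusted p under 0.05, 102 genes were higher and 73 lower. The KHT and IPT libraries overlapped for each of the 7 genes, where 0.84% of all genes lay wholly above and 1.17% wholly below.

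In that comparison Scarb1 stood at 20.8 ± 3.39 CPM in KHT and 17.7 ± 7.87 CPM in IPT, and its fold change of 1.18 had a 95% interval of 0.723 to 1.91. Lipe, at 7.82 ± 2.59 and 5.62 ± 1.39 CPM in KHT and IPT, had the highest of the 7 values, 1.36-fold with an interval of 0.811 to 2.29. Soat1 (64.1 ± 11.7 in KHT and 61.1 ± 5.55 CPM in IPT) lay between 0.497-fold and 2.22-fold, and Npc1 (21.2 ± 9.52 in KHT and 16.9 ± 10.04 CPM in IPT) between 0.671-fold and 2.35-fold. Npc2 had 35.3 ± 4.86 CPM in KHT and 36.5 ± 2.43 CPM in IPT, with an interval of 0.536-fold to 1.75-fold. Stard3 had 5.02 ± 1.45 CPM in KHT and 5.97 ± 1.11 CPM in IPT (0.514-fold to 1.40-fold), and Acbd3 had 21.7 ± 4.03 CPM in KHT and 21.9 ± 1.71 CPM in IPT (0.623-fold to 1.58-fold), all SD with n = 4. The highest upper bound was 2.35-fold (Npc1) and the lowest lower bound 0.497-fold (Soat1). These intervals come from the fit that shares its spread with NEG. In the fit of KHT and IPT alone the SE on the log2 scale was 0.151 for Soat1 (0.519 in the shared fit). It was 0.138 for Npc2 (0.410 shared) and 0.161 for Acbd3 (0.323 shared), but 0.433 for Npc1 (0.432 shared). None of the 7 was called in that fit either.

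**Figure D3:**
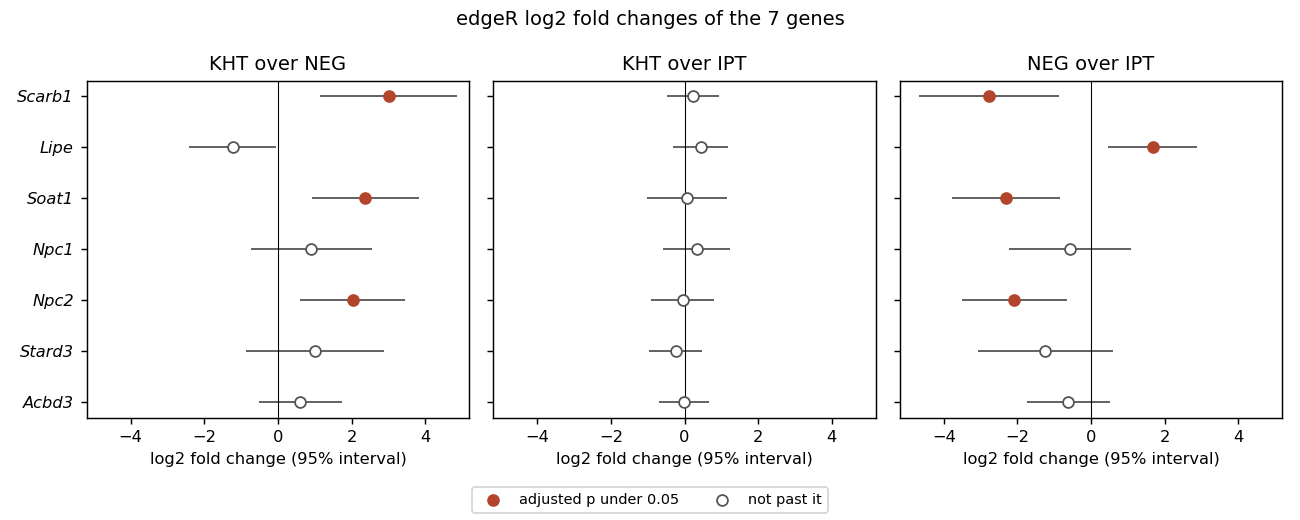
edgeR log2 fold changes of the 7 genes for KHT over NEG, KHT over IPT and NEG over IPT, with 95% intervals; filled points passed an adjusted p of 0.05. Scarb1, Soat1 and Npc2 pass in the comparisons with NEG, Lipe passes between NEG and IPT in the other direction, and every KHT over IPT interval holds 0.

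Between NEG and IPT, 3 of the 7 genes were lower in NEG and 1 was higher, where 32.5% of all genes were lower and 3.64% higher, 36.1% in either direction. Every NEG library lay below every IPT library for Soat1 and Npc2 (47.1% of all genes), and above for 0 of the 7 (1.74%). This comparison shares the NEG libraries with KHT against NEG, so the values below are no separate evidence. Scarb1 was lower in NEG by -2.78 on the log2 scale (edgeR adjusted p = 0.0254), Soat1 by -2.31 (0.0184) and Npc2 by -2.08 (0.0255). Of these, Soat1 held without any 1 library. Scarb1 ended without NEG 1 (adjusted p = 0.0927), NEG 4 (0.0606) or NEG 5 (0.0534) and with halved values (0.0514), and Npc2 ended without NEG 1 (0.0785), NEG 3 (0.0684) or NEG 4 (0.0675). Without NEG 1 or NEG 4, 1 member was left, and without NEG 3 there were 2. Npc1 (-0.58, adjusted p = 0.554), Stard3 (-1.24, 0.248) and Acbd3 (-0.62, 0.346) did not pass in edgeR. Ordered by mean CPM, NEG was the lowest group for 6 genes and the highest for Lipe. KHT and IPT, the neighbours at the other end of that order, did not pass as different in any of the 7. Over all genes the median log2 fold change was 1.73 for KHT over NEG and -1.74 for NEG over IPT. In each of these comparisons NEG was thus the lower group for most genes.

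The genes also varied between libraries within KHT and within IPT, and Npc1 had the highest coefficient of variation of the 7 in both (44.8% in KHT and 59.4% in IPT). Npc1 was at 31.0, 27.6, 14.8 and 11.5 CPM in KHT 1 to 4, and at 31.9, 12.1, 12.5 and 11.1 CPM in IPT 1 to 4. KHT 1, KHT 2 and IPT 1 were thus high and the other 5 libraries low. The 95% Poisson intervals of the counts did not meet: the lowest bound of the 3 high libraries was 22.9 CPM (KHT 2), and the highest bound of the others was 17.6 CPM (KHT 3). These intervals cover counting error alone. In CPM taken over the counts outside the 9 features alone, the same libraries stood out, with 135, 114, 61.9 and 49.5 in KHT 1 to 4 and 135, 52.1, 53.8 and 46.9 in IPT 1 to 4. As the RNA is of bulk cultures, fewer cells with the transcript, less of it per cell and a technical difference between libraries cannot be told apart.

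Scarb1 in IPT 1 stood at 28.1 CPM, the highest of its 8 KHT and IPT values, followed by KHT 1 (24.5 CPM) and KHT 2 (22.8 CPM). Scarb1 was at 17.6 and 18.3 CPM in KHT 3 and KHT 4, and at 9.81, 18.9 and 13.8 CPM in IPT 2, 3 and 4. Within the input its spread was wide, with a coefficient of variation of 44.6% in IPT against 16.3% in KHT. Soat1 shared part of this order, with 76.3, 70.9, 50.7 and 58.4 CPM in KHT 1 to 4 and 68.5, 60.4, 55.0 and 60.3 CPM in IPT 1 to 4, so that KHT 1, KHT 2 and IPT 1 were again the 3 highest libraries. Star, the transfer protein that brings cholesterol into mitochondria, was split otherwise. It was at 30.6, 26.3, 63.5 and 54.9 CPM in KHT 1 to 4 and at 28.6, 26.6, 63.0 and 58.2 CPM in IPT 1 to 4, low in libraries 1 and 2 of both groups. What the first libraries share is not in the labels, and its part in these values was not tested. Without KHT 1 and IPT 1, a fit chosen after the values were seen, again none of the 7 genes differed between KHT and IPT.

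**Figure D4:**
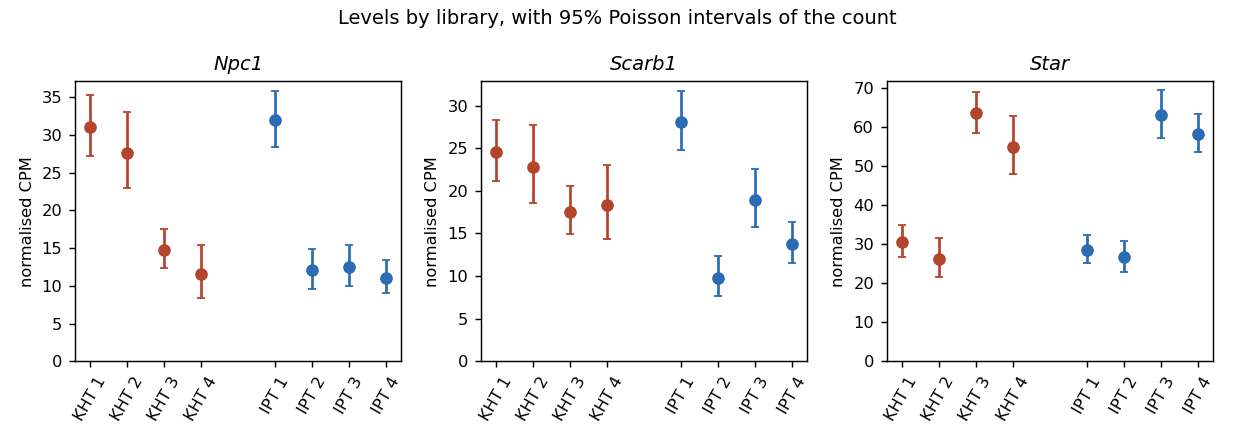
TMM-scaled CPM of Npc1, Scarb1 and Star in each KHT and IPT library, with exact 95% Poisson intervals of the count. Npc1 is high in KHT 1, KHT 2 and IPT 1, Scarb1 is highest in IPT 1, and Star is low in KHT 1, KHT 2, IPT 1 and IPT 2.

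Npc2 and Acbd3 varied little in the input. Npc2 was at 38.0, 36.5, 38.5 and 33.1 CPM in IPT 1 to 4, and Acbd3 at 20.6, 24.5, 21.3 and 21.3 CPM. Their coefficients of variation in IPT, 6.64% and 7.80%, were the lowest of the 7, against 59.4% for Npc1. In KHT they were 13.8% for Npc2 and 18.5% for Acbd3, where KHT 3 and KHT 4 (24.8 and 25.6 CPM) lay above KHT 1 and KHT 2 (17.9 and 18.7 CPM). Stard3 was between 3.71 and 6.84 CPM in KHT and between 4.96 and 7.54 CPM in IPT. The variance of Stard3 between libraries was 2.98 times what counting alone gives in KHT and 1.47 times in IPT. For Acbd3 in IPT this ratio was 1.01, and for Npc1 in IPT it was 51.3. The gene Rmc1, which overlaps the end of Npc1 by 8982 bases, stayed at 4.38 to 6.02 CPM in KHT and 3.80 to 6.13 CPM in IPT and did not show the range of Npc1.

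Other genes of cholesterol handling were counted from 6 lists with 90 genes, of which 71 passed the filter. Of these 71, KHT exceeded NEG in 32 (45.1%) and was below it in 1, beside the 31% and 2.72% of all genes. In the alternatives below, each percentage is the share of all genes tested and not of the lists. Without NEG 1, 15 of 71 were higher (all genes 15%), and without NEG 5 it was 47 of 71 (all genes 47.2%). It was 19 of 71 without NEG 3 (all genes 21.6%) and 21 of 71 without NEG 4 (all genes 20.9%). In the fit of the 2 groups alone it was 17 of 67 (all genes 24.8%), and scaled by total counts it was 70 of 71 (all genes 97.3%). None of the 71 was called between KHT and IPT.

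Among uptake receptors and their regulators 2 of 7 were higher in KHT, with a median log2 fold change of 1.54. Lrp1, a large endocytic receptor, stood at 193 ± 7.89 CPM in KHT and 36.9 ± 52.5 CPM in NEG (2.33 on the log2 scale, edgeR adjusted p = 0.0485). Lrp1 lost the call without NEG 1, 3 or 4 or any 1 KHT library (0.0608 to 0.0956), in the 2 groups alone (0.110), scaled by the counts outside the 9 features (0.0681) and with a mean of at least 10 CPM (0.0644).

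Of the genes of ester storage and hydrolysis, where Soat1 and Lipe belong, 6 of 12 others were higher (median 2.26, or 1.66 with bounds). The lipid droplet coat Plin3, at 18.9 ± 5.31 CPM in KHT and 0 in each NEG library, was at least 5.01-fold higher when the 4 NEG libraries together are given 3 counts (adjusted p = 0.0058 by edgeR). Its relative Plin4 was at 8.99 ± 1.64 CPM in KHT and 0 in NEG (adjusted p = 0.0123 by edgeR). With the same 3 counts Plin4 was 2.44-fold higher, and its interval started at 1.97-fold. Mgll, which cuts monoacylglycerol, was at 48.1 ± 8.95 CPM in KHT and 9.22 ± 11.8 CPM in NEG (2.27, adjusted p = 0.0146). Mgll lost the call in the 2 groups alone (adjusted p = 0.0562). Plin3, Plin4 and Mgll are not esterases of cholesterol.

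Sterol transfer genes, the list of Stard3's relatives and contact site proteins, were higher in KHT in 9 of 22 (median 1.90, or 1.77 with bounds). Osbp, which trades cholesterol for a phosphoinositide between the endoplasmic reticulum and the Golgi, stood at 26.7 ± 1.87 CPM in KHT and had 1 NEG count (ratio 21.2, 95% counting interval 3.79 to 839; edgeR adjusted p = 0.00267). Tmem97, a membrane protein known to bind Npc1 (ratio 16.1, 2.87 to 635; adjusted p = 0.00404), and Osbpl11, a relative of Osbp (ratio 13.0, 2.33 to 517; adjusted p = 0.00742), also had 1 NEG count each. Star, on the same list, was higher in KHT (43.8 ± 18.2 CPM, against 7.21 ± 14.4 CPM in NEG; adjusted p = 0.0293), with its NEG counts in NEG 5 alone. The call of Star ended without NEG 1, 3 or 4 or KHT 3 or 4 (adjusted p from 0.0505 to 0.100), scaled by the counts outside the 9 features (0.0556) and with halved values (0.0590).

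For cholesterol efflux 4 of 5 tested genes were higher in KHT (median 2.53, or 1.29 with bounds). That number was 1 of 5 in the 2 groups alone (all genes 24.8%) and without NEG 1 (15%), NEG 3 (21.6%) or NEG 4 (20.9%). Without NEG 5 it was 5 of 5 (all genes 47.2%). Nr1h3, a nuclear receptor for oxysterols, was at 8.89 ± 3.23 CPM in KHT and 0 in NEG (edgeR adjusted p = 0.0191). With 3 counts given to NEG it was 2.44-fold higher, and its exact 95% counting interval started at 1.97-fold. Nr1h3 lost the call without NEG 1 (0.0565) and with halved values (0.0620). Abca1, the exporter to lipid-poor apolipoprotein, was at 178 ± 15.8 CPM in KHT and 29.7 ± 39.1 CPM in NEG (2.53, adjusted p = 0.0330). Nr1h2, the sister receptor of Nr1h3, had 3 NEG counts (ratio 3.85, 95% counting interval 1.31 to 18.7; adjusted p = 0.0408). Abca1 lost the call without NEG 3 or 4 or any 1 KHT library (0.0515 to 0.0658) and in the 2 groups alone (0.0817). Nr1h2 held in 7 of 18 alternatives, and lost the call without NEG 1, 3 or 4 or any 1 KHT library (0.0502 to 0.128).

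Among genes of mitochondrial cholesterol import, which holds the known partners of Acbd3, 7 of 18 were higher in KHT and 1 was lower (median 1.57, or 1.55 with bounds). Tspo, which binds cholesterol in the outer mitochondrial membrane, was represented by 756 KHT counts against 2 NEG counts, a ratio of 12.1 (95% counting interval 3.34 to 100.005, adjusted p = 0.00564 by edgeR). Fdxr, the reductase that feeds electrons to side chain cleavage, was at 41.8 ± 7.03 CPM in KHT and 4.12 ± 8.24 CPM in NEG (3.07, adjusted p = 0.00637). Acbd5, a peroxisomal protein with the same acyl-CoA binding domain as Acbd3, was at 36.2 ± 1.48 CPM in KHT and 4.12 ± 8.24 CPM in NEG (2.85, adjusted p = 0.00742). These 3 calls held in all 18 alternatives. The single gene lower in KHT was the porin Vdac2, named here because it was the only one (27.7 ± 4.01 CPM in KHT, 76.5 ± 33.9 CPM in NEG; -1.43, adjusted p = 0.0176). Scaled by total counts Vdac2 was higher in KHT (2.70), and its call ended without NEG 4 (adjusted p = 0.0578) or KHT 1 (0.0519), with no filter on low counts (0.177) and in the 2 groups alone (0.142).

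In the sterol sensing list 4 of 7 were higher (median 2.17, or 1.97 with bounds). Mbtps1, the protease that makes the first cut in the sterol-regulated transcription factors, was at 50.6 ± 9.17 CPM in KHT and 7.50 ± 8.74 CPM in NEG (2.73, edgeR adjusted p = 0.00773). Scap, the sterol sensor that escorts them, was at 81.9 ± 11.4 CPM in KHT and 16.8 ± 10.98 CPM in NEG (2.24, adjusted p = 0.0108), and Srebf1, one of those factors, at 29.7 ± 3.22 CPM in KHT and 7.50 ± 8.74 CPM in NEG (1.97, adjusted p = 0.0228). Both Scap (0.0814) and Srebf1 (0.0730) lost the call in the 2 groups alone, and Srebf1 also without NEG 1 (0.0652) or NEG 3 (0.0578). Of the 18 genes that the naming rule took from the lists as higher, 9 kept the call in all 18 alternatives.

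**Figure D5:**
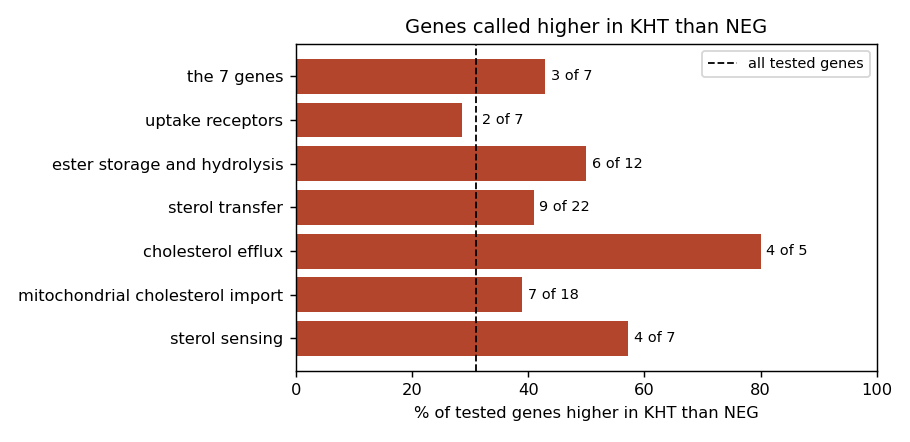
Share of tested genes called higher in KHT than in NEG by edgeR (adjusted p under 0.05) for the 7 genes and 6 other lists of cholesterol handling, with the number called of the number tested beside each bar; the dashed line is the share over all 10714 genes, 31%. The lists run from 2 of 7 for uptake receptors to 4 of 5 for efflux, where the number was 1 of 5 without NEG 1, 3 or 4.

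For each of the 7 genes the tested gene with the most similar pattern was found as the smallest root mean square distance between centred log2 CPM values over the 12 libraries. Npc2 was closest to Senp1 (distance 0.13). Stard3 was closest to Cln3 (0.17) and Acbd3 to Acacb (0.19). Scarb1 was closest to Smcr8 (0.22), Npc1 to Pacs2 (0.26) and Lipe to Cnpy2 (0.41). The NEG mean of the closest gene equalled the gene's own for Stard3 (2.06 CPM), Scarb1 (3.04 CPM) and Npc1 (10.7 CPM), and differed for Npc2, Acbd3 and Lipe. A few counts in the same NEG libraries can thus set the match, and shared function was not tested. The median distance of all tested genes from these 7 ran from 1.29 for Stard3 to 2.81 for Lipe. In no case was the closest gene another of the 7, and the closest pair among them was Npc2 and Stard3 (1.17), whose NEG counts all lay in NEG 5.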

How the data were processed

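RNA of MA-10 cells was sequenced from KHT and NEG pull-downs and from input (IPT). The authors deposited 1 table of estimated counts per gene, unscaled; the tools kallisto and DESeq2 and the builds GRCm38 and mm10 are named, per the submitters' processing notes, without versions or roles. Per the labels' protocols, the kit was TruSeq Stranded with removal of ribosomal RNA, although the molecule field names polyA RNA. Titles gave the groups, since the KHT description speaks of negative controls. The values were already whole, and values of 2 (24545) outnumbered values of 1 (9352), and whether both mates were counted could not be settled. Counting intervals and floors cover counting error only and are too narrow if both were. Symbols were found for 27004 of 27071 identifiers. Coordinates are from RefSeq genes of GRCm38.p6.

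All genes were fitted at once with edgeR 4.0.16 (R 4.3.3; limma 3.58.1 and DESeq2 1.42.0 as alternatives): TMM, filterByExpr (10714 genes), glmQLFit with robust estimation and glmQLFTest in 1 fit of 3 groups, 12 libraries. Tests were two-sided with Benjamini-Hochberg adjustment over all genes tested and a threshold of 0.05. SE was the log2 fold change over the root of F, and 95% intervals used the t quantile of the fit. The fit was tested on simulated data. The 9 dominant features each held at least 0.5% of pooled NEG counts. A gene at 0 in a group was given 3 counts summed over its libraries as a floor. Groups with at most 3 counts were given an exact binomial interval of the ratio. Medians with bounds left out genes at 0 in a group whose level in the other group did not exceed that floor. The members, the lists, the markers and the tests were chosen with earlier results of these data known.

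The genes named are the 7 members, up to 3 called genes of each list with the smallest p, Star and Tspo, genes that overlap a member, and the closest gene in pattern (prior count of 2). Alternatives were median-ratio size factors, total counts, counts outside the dominant features, no filter, a mean of at least 10 CPM, DESeq2, limma voom, 2 groups alone, the replicate number as a block, halved values and leaving out each library. Some genes that this rule chose are not reported here. Leaving out KHT 1 with IPT 1 was added after seeing the data.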

Additional observations from a re-analysis of the deposited data

Results flagged for a closer look

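Of 21 sets of 4 libraries (7 genes in 3 groups), 5 held 1 library far from the rest of its group by Dixon's criterion. Chance flags about 1 of 20 sets, but that rate does not apply to the NEG sets of Scarb1, Npc2 and Stard3, where the criterion is met by any gene with counts in a single library. In IPT 1, Npc1 stood at 31.9 CPM, against 11.1 to 12.5 CPM in the other IPT libraries. The other 4 lay in NEG and rest on few counts. Scarb1 was at 12.2 CPM in NEG 3 and at 0 in the other NEG libraries. In NEG 5, Npc2 was at 28.9 CPM and Stard3 at 8.24 CPM, with 0 in the others. Lipe was at 0 in NEG 5, against 24.3 to 27.0 CPM in the others. NEG 5 held the most counts outside the 9 dominant features, 49062, and 7047 detected features, where the other NEG libraries had 2173 to 4082. The part of that depth, or of the bait of NEG 5, in these values was not tested.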

How the results depend on the processing

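Of the 7 genes, 3 were called between KHT and NEG, 0 between KHT and IPT and 4 between NEG and IPT. Under total counts 7 were called between KHT and NEG and 7 between NEG and IPT. The fit of the 2 groups alone called 1 between KHT and NEG, and halved values called 2 between NEG and IPT. Leaving out 1 library at a time gave 1 to 5 between KHT and NEG, 0 to 0 between KHT and IPT and 1 to 4 between NEG and IPT. No alternative called a gene between KHT and IPT. With a mean of at least 10 CPM, Stard3 was not tested.

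The direction turned under total counts for Lipe in KHT over NEG (2.83) and NEG over IPT (-2.67), for Vdac2 in KHT over NEG (2.70), and for Scarb1 (-0.00272) and Soat1 (-0.16) in KHT over IPT, beside a median over all genes of 5.66 in KHT over NEG, -5.90 in NEG over IPT and -0.24 in KHT over IPT. Leaving out 1 library, KHT over IPT ran from -0.026 to 0.165 for Soat1, from -0.121 to 0.031 for Npc2 and from -0.098 to 0.072 for Acbd3, and it was 0.046 for Acbd3 without KHT 1 and IPT 1, a setting chosen after seeing the data; the cause was not tested.

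The replicate block called 4 genes between KHT and NEG, 0 between KHT and IPT and 4 between NEG and IPT. Number 5 occurs in NEG alone, so the block fits NEG 5 by itself and compares the groups without it. The block is thus close to leaving out NEG 5 and is hardly a separate alternative. Soat1 in KHT over NEG was 4.08 with the block and 4.16 without NEG 5. Between KHT and NEG the block added Lipe as lower (-1.82, adjusted p = 0.0104 in edgeR). Between NEG and IPT, Scarb1 lost its call (0.0560) and Stard3 gained one (0.0411). Same-numbered libraries of KHT and IPT did not deviate together across genes (r from -0.55 to 0.13). Of the 4 KHT libraries, 0 correlated best with their own number in IPT. Star was alike in same-numbered libraries, with log2 KHT over IPT from -0.085 to 0.098, whereas in number 2 it was 1.22 for Scarb1 and 1.19 for Npc1. Whether equal numbers mark a shared source is not in the labels and was not settled. Over all genes, KHT exceeded NEG in 3324 and was below it in 291. The number higher was 10426 under total counts, 5042 with the block, 2103 in the 2 groups alone, 1762 with halved values, 1721 without NEG 1 and 5421 without NEG 5. The number lower was 14 under total counts, 791 with no filter, 174 without NEG 3, 186 without NEG 4 and 454 without NEG 5. In NEG, 3482 were lower and 390 higher than in IPT. The number lower was 10423 under total counts, 2046 in the 2 groups alone, 1901 with halved values, 1792 without NEG 1 and 5447 without NEG 5, and the number higher was 50 under total counts and 987 with no filter. Between KHT and IPT, 1 was higher and 0 lower, against 43 and 13 with no filter, 4 and 3 in DESeq2, 1 and 8 in limma voom and 5 and 2 without KHT 1 and IPT 1. Depth in NEG limits every comparison with it: each of the 7 genes has at most 14 counts there.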
